A study of Mus musculus with 16 samples.

Results

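ATRX-dependent heterochromatin nanodomains (HNDs) lay at higher density on chromosomes 1, 8 and 11 than on most other autosomes of mouse embryonic stem cells (ESCs), and this set holds all 2723 HNDs on those chromosomes, out of 13113 in the list. The chromosomes were chosen by their measured number of HNDs per Mb and because an extra copy of them is common in cultured ESCs, so their density is given as a description, without a test. In the study, H3K9me3 was mapped by ChIP-seq in the WT ESC line wt26 and in *Atrx* KO cells, and an ATRX-dependent HND is a region with a broad H3K9me3 peak in WT and none in KO. Each genotype had 2 libraries each of H3K9me3, total H3, IgG and input, 16 libraries in all. KO cells came from the lines KO1-40 and KO1-45, the labels do not say which KO library is from which line, and WT and KO cells were all grown on gelatine with LIF. The list gives positions alone, with no height and no value per library, and the copy number of the chromosomes was not measured in it.

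H3K9me3 is a histone mark of silenced chromatin that is bound by heterochromatin protein 1, and HNDs are short stretches of it. ATRX is a chromatin remodeller that, with its partner DAXX, loads the histone variant H3.3 at repeats, telomeres and other H3K9me3 sites. Mouse ESCs gain whole chromosomes in long culture, and a line with an additional copy gives more sequencing reads from every part of that chromosome, whereas a local cluster of HNDs changes only a few Mb.

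The sequences below, from mm9 and on the plus strand, show the kinds of HND that the results compare. Capitals mark bases inside a 50-base word that occurs more than once in mm9, and such a base can lie in single-copy words as well. The first set holds, for chromosomes 8 and 11, the HND of at most 300 bp closest to the centre of the densest 1 Mb window. Both lay outside genes, 34746 bp from Gm10617 and 26365 bp from Gm11678. The HND on chromosome 8 held a short unit repeated in tandem, and 148 of its 257 bases were in repeated words while 202 of the 257 words starting in it were single-copy, and the one on chromosome 11 had no repeated word.
chr8:120361881-120362137: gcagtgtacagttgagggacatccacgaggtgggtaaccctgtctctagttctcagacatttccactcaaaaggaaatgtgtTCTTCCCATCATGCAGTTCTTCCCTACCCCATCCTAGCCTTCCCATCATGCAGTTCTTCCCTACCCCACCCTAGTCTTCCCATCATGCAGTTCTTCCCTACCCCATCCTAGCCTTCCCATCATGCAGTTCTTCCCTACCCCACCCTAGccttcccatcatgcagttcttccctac
chr11:112319316-112319491: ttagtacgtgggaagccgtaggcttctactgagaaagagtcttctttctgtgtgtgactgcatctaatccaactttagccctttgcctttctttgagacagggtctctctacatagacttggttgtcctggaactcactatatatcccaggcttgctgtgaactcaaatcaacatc

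The next set holds, for each chromosome, the HND of 200 to 300 bp nearest the chromosome's middle in which all words were single-copy. These lay in introns of Hdac4 on chromosome 1, which encodes a histone deacetylase, and of Galnt7 on chromosome 8, which encodes an enzyme of O-glycosylation, and on chromosome 11 outside genes, 3479 bp from Gm12286. They stand for the class of HND that was more frequent on these chromosomes. Single-copy here means without a second exact match of the word in mm9, so a diverged copy of a repeat can count as single-copy.
chr1:93890104-93890366: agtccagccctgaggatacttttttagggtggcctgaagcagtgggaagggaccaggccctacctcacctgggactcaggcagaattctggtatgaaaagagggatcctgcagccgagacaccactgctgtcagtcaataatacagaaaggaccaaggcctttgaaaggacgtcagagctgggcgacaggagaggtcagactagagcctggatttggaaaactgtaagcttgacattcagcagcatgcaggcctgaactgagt
chr8:60014048-60014259: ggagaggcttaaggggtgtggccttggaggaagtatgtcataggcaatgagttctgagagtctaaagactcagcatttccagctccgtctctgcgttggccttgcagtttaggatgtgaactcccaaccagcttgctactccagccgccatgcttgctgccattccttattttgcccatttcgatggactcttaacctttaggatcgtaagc
chr11:63130293-63130579: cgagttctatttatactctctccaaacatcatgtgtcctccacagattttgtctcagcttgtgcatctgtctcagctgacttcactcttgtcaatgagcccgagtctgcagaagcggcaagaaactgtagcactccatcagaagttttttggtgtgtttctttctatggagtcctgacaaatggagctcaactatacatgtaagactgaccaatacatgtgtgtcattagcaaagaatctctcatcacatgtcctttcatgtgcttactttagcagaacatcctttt

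Chromosome 11 carried 847 HNDs, or 6.95 per Mb (95% exact Poisson interval 6.49 to 7.44), the highest density of the 19 autosomes. Chromosome 8 ranked 2 with 796 HNDs and 6.04 per Mb (5.63 to 6.48). Chromosome 1 carried 1080 HNDs but ranked 4, at 5.48 per Mb (5.15 to 5.81). Chromosome 14, which is outside the set, lay between them with 746 HNDs and 5.96 per Mb (5.54 to 6.40), and the next one below chromosome 1 was chromosome 17 at 5.01 per Mb. These intervals cover counting error only, and because neighbouring HNDs are not independent they are too narrow. Since density chose the chromosomes, their high ranks restate that choice, and chromosome 14, outside the set, was denser than chromosome 1.

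The other 16 autosomes held 9176 HNDs, or 4.54 per Mb when pooled, and their mean density was 4.55 ± 0.514 per Mb (SD over 16 chromosomes), from 3.80 on chromosome 2 to 5.96 on chromosome 14. Set against the pooled value, the density was 1.21 times as high on chromosome 1 (95% exact interval of the ratio 1.13 to 1.29), 1.33 times on chromosome 8 (1.24 to 1.43) and 1.53 times on chromosome 11 (1.43 to 1.64). For the 3 chromosomes together it was 6.04 per Mb, a ratio of 1.33 (1.27 to 1.39). At the reference density they would have held 2046 HNDs, so the excess was 677, made up of 185 on chromosome 1, 198 on chromosome 8 and 294 on chromosome 11. Chromosome 14 had a ratio of 1.34 to the rest of the reference, close to that of chromosome 8.

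**Figure D1:**
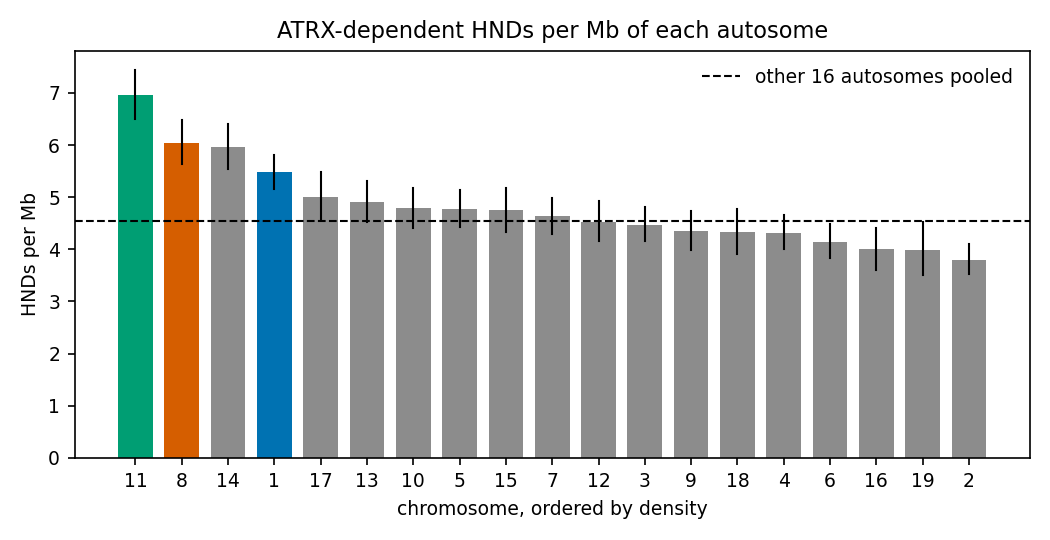
HNDs per Mb of each of the 19 autosomes, ordered by density, with 95% exact Poisson intervals as vertical lines and the pooled density of the other 16 autosomes, 4.54 per Mb, as a dashed line. Chromosomes 11, 8 and 1 (coloured) rank 1, 2 and 4, and chromosome 14 ranks 3.

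To see whether the higher density was spread along each chromosome or sat in a few places, HNDs were counted in consecutive 10 Mb windows. Of the 45 windows on the 3 chromosomes, 40 (88.9%) lay above 4.45 HNDs per Mb, the median of the 202 windows of the other 16 autosomes. By construction 50% of those reference windows do. On chromosome 11 all 12 windows were above it, on chromosome 8 it was 11 of 13 and on chromosome 1 it was 17 of 20. Among the other autosomes taken singly, this share ran from 20% on chromosome 16 to 84.6% on chromosome 14, so chromosome 14 again matched chromosome 8. Because density chose the chromosomes, a high share of windows above the median follows in large part from that choice.

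Windows at 1.5 times the reference median or more numbered 14 of 45 (31.1%), against 4.46% of the reference windows. They were 3 of 20 on chromosome 1 (15%), 5 of 13 on chromosome 8 (38.5%) and 6 of 12 on chromosome 11 (50%). Outside the set, chromosome 14 had 3 of 13 (23.1%), a higher share than chromosome 1, and chromosome 7 had 2 of 15 (13.3%). At 2 times the median or more there was 1 of 45 (2.22%), against 0.99% of the reference windows. These shares too follow in part from the choice of dense chromosomes. Most of the raised windows were moderately so, with few at the extreme. Per Mb of length the highest windows were on other autosomes, at 10.0 on chromosome 14 and 9.9 on chromosome 13. Per sequenced Mb these had 10.2 and 9.95, and the window of chromosome 11 from 0 to 10 Mb was higher, at 11.

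Along chromosome 1 the windows ranged from 3.2 to 7.8 HNDs per Mb around a median of 5.46. The lowest, from 0 to 10 Mb, includes the unsequenced centromeric end and reached 4.57 per sequenced Mb. The windows from 10 to 50 Mb held 7.3, 6.4, 6.5 and 6.7 per Mb, and the highest one, at 7.8, spanned 180 to 190 Mb. Between them, from 60 to 100 Mb, values were 4.5, 4.8, 4.6 and 4.4, at the level of the reference. The window from 80 to 90 Mb had 5.75 per sequenced Mb. From 100 to 180 Mb the windows held between 4.2 and 5.8 per Mb.

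Chromosome 8 ranged from 4.4 to 8.3 per Mb with a median of 6.3. Its windows from 10 to 50 Mb held 7.3, 6.6, 6.9 and 7.2 per Mb. Those from 50 to 70 Mb fell to 4.4 and 4.7, and the highest, at 8.3, lay from 110 to 120 Mb. Per sequenced Mb the first window, at 4.4 per Mb, rose to 6.29 and that from 50 to 60 Mb to 5.30, and the window from 20 to 30 Mb, at 8.30, equalled the highest.

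Chromosome 11 ranged from 4.9 to 9.4 per Mb with a median of 6.84. Its first windows, from 0 to 30 Mb, held 7.7, 8.8 and 9.4 per Mb, the first of them 11 per sequenced Mb, and the lowest pair, both at 4.9, lay from 70 to 90 Mb. Over its proximal part, up to the midpoint, it carried 8.21 HNDs per sequenced Mb, against 6.11 over the distal part. The same values were 5.67 and 5.61 on chromosome 1 and 6.69 and 6.10 on chromosome 8. The coefficient of variation over windows was 20.0% on chromosome 1, 21.0% on chromosome 8 and 20.7% on chromosome 11, and over the other autosomes taken singly it ran from 14.8% on chromosome 17 to 39.5% on chromosome 13.

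**Figure D2:**
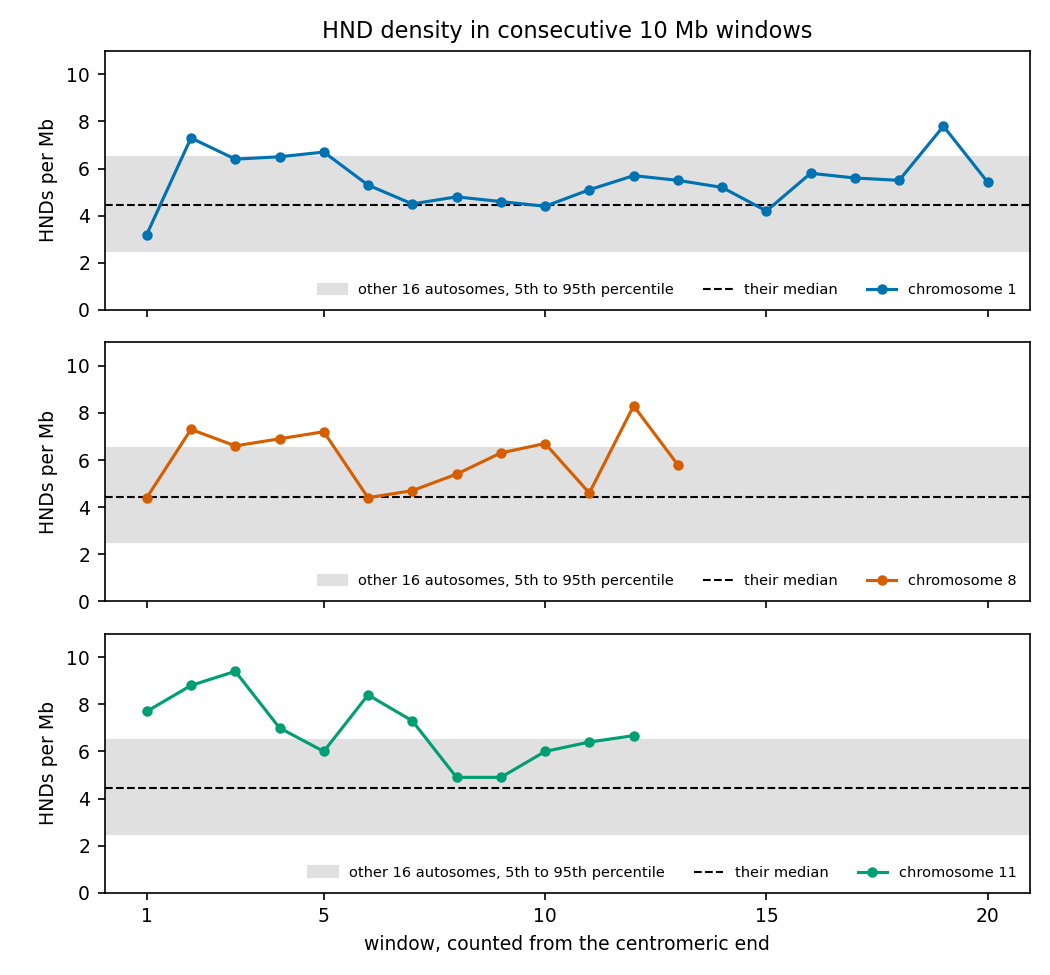
HNDs per Mb in consecutive 10 Mb windows of chromosomes 1, 8 and 11, numbered from the centromeric end, with the median (dashed, 4.45) and the 5th to 95th percentile (grey, 2.5 to 6.5) of the 202 windows of the other 16 autosomes. Of 45 windows, 40 lie above the dashed line.

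The ratio was also taken without the densest windows. With the densest 10 Mb window of every autosome removed, from the reference too, the ratio for the 3 chromosomes was 1.35 (1.29 to 1.41). Without the densest 2 it was 1.36 and without the densest 3 it was 1.36 (1.30 to 1.44). By chromosome, the ratio without the densest 3 was 1.26 for chromosome 1, 1.37 for chromosome 8 and 1.55 for chromosome 11. Set against all reference windows, so that the set alone lost windows, it was 1.29 without the densest window of each chromosome, 1.26 without the densest 2 and 1.23 (1.17 to 1.29) without the densest 3. A fixed number takes more from the reference, whose chromosomes are shorter on average: the densest 3 are 20% of the windows of the set and 23.8% of the others. With the densest 20% of each chromosome left out, to the nearest window, the ratio was 1.36 (1.29 to 1.43).

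**Figure D3:**
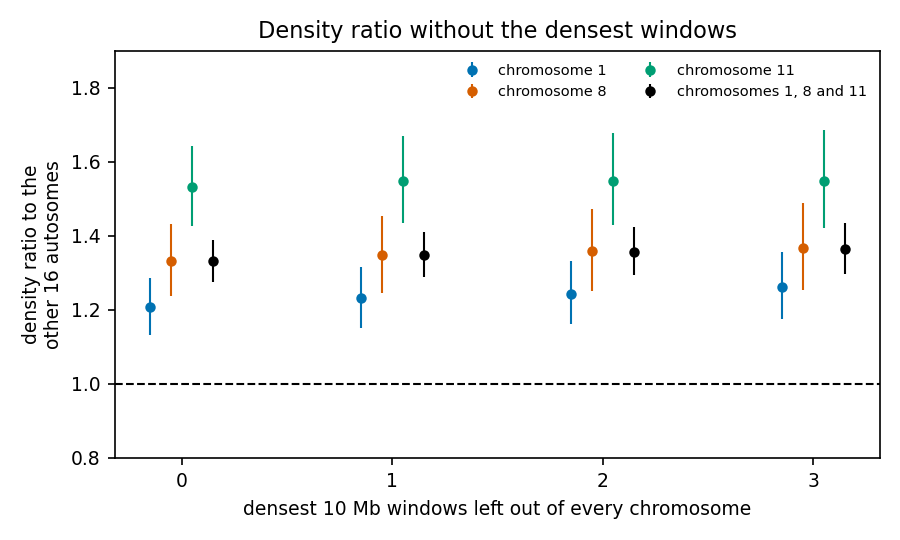
Ratio of HND density to that of the other 16 autosomes for chromosomes 1, 8 and 11 and for all 3 together, with the densest 0, 1, 2 or 3 windows of 10 Mb left out of every chromosome. Vertical lines are 95% exact intervals, and the ratio of the 3 together lies between 1.33 and 1.36. The densest 3 are 20% of the windows of the set and 23.8% of those of the others.

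HNDs were also counted at a finer scale. Of the 436 windows of 1 Mb with most of their bases sequenced, 71 (16.3%) held 10 HNDs or more, against 6.11% of such windows on the other 16 autosomes. By chromosome it was 10.4% on chromosome 1, 18.4% on chromosome 8 and 23.5% on chromosome 11. Chromosome 14, outside the set, had 15.6%, more than chromosome 1. Windows without any HND were 4 of 436 (0.917%), against 2.95% on the others. Windows of 10 HNDs or more contained 866 of the 2723 HNDs (31.8%), and 15.1% of those on the other autosomes. When they were left out on all autosomes, the ratio fell to 1.19 (1.13 to 1.26), by a threshold that removes more of a denser chromosome. The ratio then was 1.18 on chromosome 1, 1.17 on chromosome 8 and 1.26 on chromosome 11. A chromosome with a higher mean reaches 10 HNDs more often and has fewer empty windows, so these shares restate density in part. The variance of the 1 Mb counts over their mean was 1.56 on chromosome 1, 1.88 on chromosome 8 and 2.43 on chromosome 11. It was 1.71 on the other 16 autosomes pooled, and chromosome 13, outside the set, had 2.57. Which share of the raised density belongs to a difference in copy number was not tested.

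The densest 1 Mb window of the set lay on chromosome 11 from 112 to 113 Mb and held 23 HNDs, of which 22 were single-copy, a count that 2 of the 2473 autosomal windows reached. It is the gene-poor surrounding of Sox9, a transcription factor of cartilage and testis development, and 7 of the HNDs overlapped the non-coding 2610035D17Rik or BC006965. On chromosome 8 the densest window, from 120 to 121 Mb, held 19 HNDs, with 9 of them in Cdh13, Plcg2 or Sdr42e1. Cdh13 encodes T-cadherin, and Plcg2 a phospholipase C of blood cell signalling. On chromosome 1 the highest count was 14, as in the window from 186 to 187 Mb, where 10 of the HNDs were single-copy and 2 lay in Mark1, which encodes a kinase of microtubule regulation, or Mosc2. A window of chromosome 8 from 22 to 23 Mb, in the alpha-defensin cluster, held 16 HNDs of which 0 were single-copy, so it is of another kind than the windows above.

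The share of single-copy HNDs lay above the range of the other 16 autosomes on all 3 chromosomes, by a small margin on chromosome 1. For every HND, 50-base words were scored as unique in mm9, both strands considered, or as repeated. An HND with at least 90% unique words is called single-copy here. Matches were exact, so this class can hold diverged copies of repeats and is not the same as sequence free of repeats. The paper reports a LINE1 sub-repeat in every ATRX-dependent HND. The set had 1665 single-copy HNDs of 2723, or 61.1% (95% Wilson interval 59.3 to 63.0), against 46.3% on the other 16 autosomes. The share was 55.4% (52.4 to 58.3) on chromosome 1, 62.3% (58.9 to 65.6) on chromosome 8 and 67.4% (64.2 to 70.5) on chromosome 11. These 3 chromosomes ranked 3, 2 and 1 among the 19 autosomes. The highest of the others was chromosome 15 at 53.2% (48.7 to 57.5), whose interval overlaps that of chromosome 1. The mean over the other 16 was 46.6 ± 4.79% (SD over 16 chromosomes).

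Counted over words, 83.7% of those in the HNDs of the set were single-copy, against 71.6% in HNDs of the other autosomes. The chromosomes themselves differed much less, with 91.1% of all words single-copy on chromosomes 1, 8 and 11 and 89.0% on the others. On chromosome 11 the HNDs reached 90.2%, close to the 93.0% of the whole chromosome. On chromosome 1 they had 79.6% against 90.2%, and on chromosome 8 they had 81.5% against 90.7%. HNDs without any single-copy word made up 6.32% of the set and 10.0% of the HNDs elsewhere.

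The density of single-copy HNDs was 3.69 per Mb in the set and 2.10 per Mb on the other 16 autosomes, a ratio of 1.76 (1.66 to 1.86). HNDs below 90% single-copy words had 2.35 per Mb in the set and 2.44 per Mb elsewhere, a ratio of 0.962 (0.899 to 1.03). In other words, the set held 719 single-copy HNDs above the number at the reference density, and its count of other HNDs was 1058 where the reference density gives 1100. The ratio for single-copy HNDs was 1.44 on chromosome 1, 1.79 on chromosome 8 and 2.23 on chromosome 11. For the other HNDs it was 1.00, 0.933 and 0.928. On each of the 3 chromosomes the excess in listed HNDs thus lay in single-copy HNDs, with other HNDs at or near the reference density. The authors kept uniquely mapped reads alone, so HNDs in repeated sequence could be missed on any autosome, and this was not tested. The comparison of the classes was picked after its values were seen.

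Chromosome 14 differed from the set in this respect. Its single-copy HNDs had 3.07 per Mb, a ratio of 1.51 to the rest of the reference, and its other HNDs had 2.89 per Mb, a ratio of 1.20 (1.08 to 1.34) and the highest density of that class on any autosome. Its share of single-copy HNDs was 51.5%, rank 8 of 19. In the ranking of single-copy density, chromosome 14 was at 3 and chromosome 1, at 3.03 per Mb, was at 4, so chromosome 1 stood within the range of the other autosomes there.

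**Figure D4:**
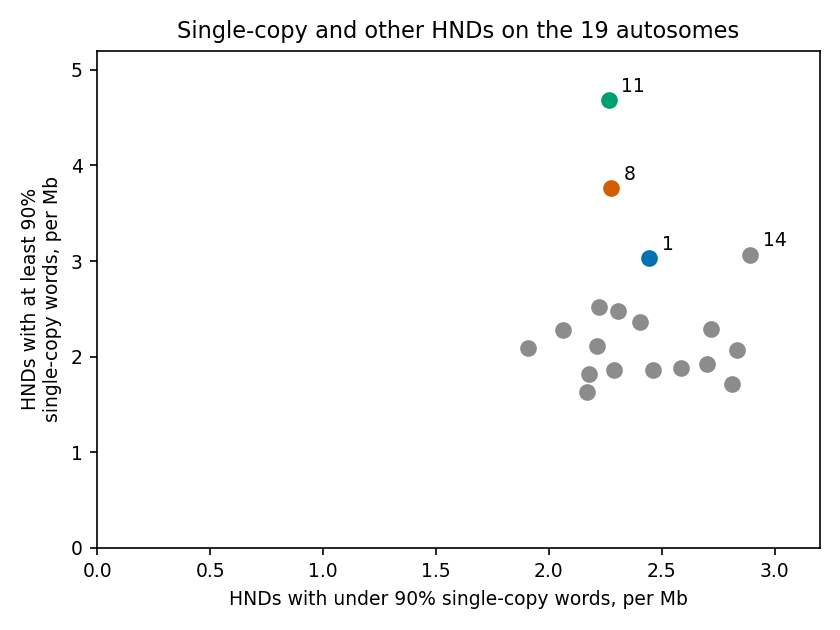
Each point is an autosome, placed by its density of HNDs with under 90% single-copy 50-base words (horizontal, per Mb) and of HNDs with at least 90% (vertical, per Mb). Chromosomes 1, 8 and 11 lie at 2.44, 2.28 and 2.27 on the horizontal axis, amid the others, and at 3.03, 3.77 and 4.69 on the vertical axis; chromosome 14 is high on both.

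The classes were also compared along the chromosomes, where the share of windows above a median restates the density of each class in part. For single-copy HNDs 41 of the 45 windows of 10 Mb (91.1%) were above the reference median of 2.0 per Mb, as were 48.5% of the reference windows. It was 17 of 20 (85%) on chromosome 1, 12 of 13 on chromosome 8 and 12 of 12 on chromosome 11. Among the other autosomes taken singly, the share ran from 25% on chromosome 12 to 84.6% (11 of 13) on chromosome 14, which was level with chromosome 1. For the other HNDs 22 of 45 (48.9%) were above the reference median of 2.3 per Mb, as were 46% of the reference windows. The highest density of single-copy HNDs was 7.3 per Mb, on chromosome 8 from 110 to 120 Mb, and the highest among all reference windows was 5.2. The lowest on chromosome 11, at 2.9 per Mb, was still above the reference median.

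HNDs of the set were wider. Their median width was 470 bp, with quartiles of 249 and 811 bp, against 403 bp on the other 16 autosomes, where the chromosome medians ranged from 325 to 466 bp. Chromosome 11 had the highest median of the autosomes at 494 bp, chromosome 1 had 458 bp (rank 3) and chromosome 8 had 453.5 bp (rank 4). The widest HND of the set, 7448 bp, was on chromosome 11, and the narrowest had 1 bp. HNDs of 700 to 2000 bp made up 27.8% of the set and 24.8% of the HNDs elsewhere, and those under 200 bp made up 18.1% and 21.2%.

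The pooled density ratio was higher in wider classes. It was 1.14 (1.03 to 1.26) for HNDs under 200 bp, 1.31 (1.24 to 1.39) from 200 bp to under 700 bp, 1.49 (1.37 to 1.62) from 700 to 2000 bp and 1.69 (1.31 to 2.16) above 2000 bp. In the same order it was 1.12, 1.21, 1.26 and 1.24 on chromosome 1, where the interval of the last runs from 0.815 to 1.83, and 1.24, 1.25, 1.55 and 1.54 on chromosome 8, with 0.968 to 2.35 for the last. The last step of the pooled ratio thus came from chromosome 11, where the 37 HNDs above 2000 bp gave 2.57 (1.77 to 3.64). Covered bases per Mb combine number and width, at 3835 bp in the set against 2633 bp, a ratio of 1.46. The pooled medians differed within both classes of sequence. Single-copy HNDs had a median of 501 bp against 466 bp, and the other HNDs had 399.5 bp against 346 bp. In the single-copy class, however, chromosome 1 at 469 bp ranked 11 of 19 and chromosome 8 at 510 bp ranked 6, within the range of the other autosomes, and chromosome 11 at 549 bp ranked 1, just above chromosome 9 at 544 bp.

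Genes overlapped 926 of the 2723 HNDs by at least 1 base, or 34.0% (32.3 to 35.8), against 29.7% on the other 16 autosomes. Genes covered 43.3% of the sequenced bases of chromosomes 1, 8 and 11 and 41.6% elsewhere, so HNDs were less often in genes than the sequence as a whole in both. On chromosome 11, the most gene-rich autosome with 52.1% of its bases in genes, 38.6% (35.4 to 41.9) of HNDs overlapped a gene. On chromosome 8 the share was 30.3% (27.2 to 33.6) beside 41.3% of bases, and on chromosome 1 it was 33.1% (30.4 to 36) beside 39.3% of bases. The quotient of the share of HNDs and the share of bases was 0.845 on chromosome 1, the highest of the autosomes, 0.733 on chromosome 8 and 0.742 on chromosome 11, and 0.715 ± 0.0462 (SD) over the other 16.

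Both genic and intergenic sequence carried the higher density. Per Mb of genic sequence the set had 4.84 HNDs with their centre there, against 3.29 on the other autosomes, a ratio of 1.47 (1.36 to 1.59). Outside genes it had 7.35 against 5.68 per Mb, a ratio of 1.29 (1.23 to 1.36). Chromosome 1 showed it mainly in genes, with 1.43 (1.28 to 1.60) inside and 1.10 (1.02 to 1.19) outside, whereas chromosome 11 had 1.59 and 1.62. Exons were touched by 147 HNDs of the set, or 5.40% (4.61 to 6.31), against 4.27%. Chromosome 11 had 6.97% (5.44 to 8.88), while the intervals of chromosome 1, at 4.63% (3.53 to 6.05), and chromosome 8, at 4.77% (3.50 to 6.48), include the reference value, and chromosome 14 was highest of all at 7.64%. HNDs within 1000 bp of a gene start were rare, 76 in the set (2.79%) and 2.76% on the others.

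Base composition was compared through 1 Mb windows, placed in 3 classes of equal number over all autosomes by their G+C content. In windows below 40.0% G+C the ratio of the set to the others was 1.21 (1.11 to 1.31), in those between 40.0% and 43.4% it was 1.39 (1.29 to 1.5), and in those above 43.4% it was 1.41 (1.31 to 1.51). Per sequenced Mb the set had 5.27, 7.01 and 6.53 HNDs in these classes, and the highest single other autosome had 6.07, 7.48 and 5.62. The set was thus outside their range in the class of highest G+C alone. Chromosome 11 was raised in all classes, with ratios of 1.56, 1.69 and 1.46. On chromosome 1 the ratios were 1.15, 1.27 and 1.17. Chromosome 8 went from 1.10 (0.950 to 1.27) in the lowest class to 1.56 (1.39 to 1.74) in the highest. Chromosome 11 has the highest G+C content of the autosomes, 43.8%, while chromosome 1, with 41.1%, ranks 17. The HNDs themselves had 44.8% G+C in the set and 44.9% elsewhere.

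**Figure D5:**
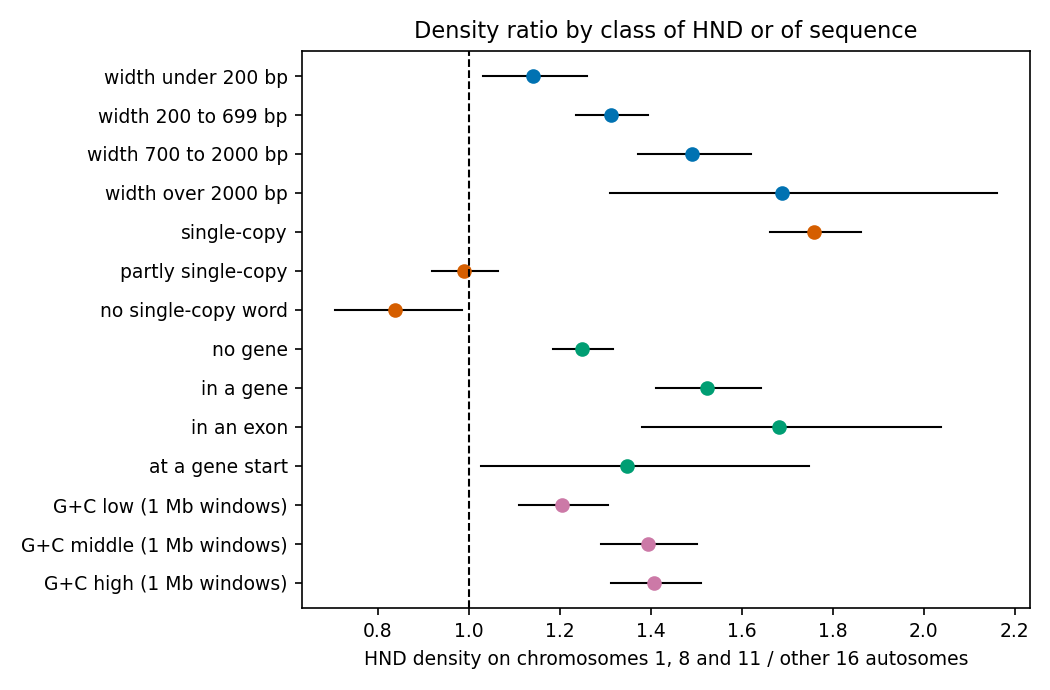
Ratio of the HND density on chromosomes 1, 8 and 11 to that on the other 16 autosomes for HNDs split by width, by single-copy words and by gene overlap, and for all HNDs in 1 Mb windows split by G+C content; horizontal lines are 95% exact intervals. Single-copy HNDs stand at 1.76 and HNDs without a single-copy word at 0.838. The latter ratio is 0.946 (0.749 to 1.18) on chromosome 1, 0.866 (0.642 to 1.15) on chromosome 8 and 0.631 (0.436 to 0.883) on chromosome 11. By width the pooled ratio goes from 1.14 to 1.69, the last step from chromosome 11.

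Neighbouring HNDs lay close together more often in the set. Another HND within 10000 bp was found for 23.7% of the HNDs, against 19.1% on the other autosomes, where the chromosomes ranged from 14.6% to 24.5%. Higher density brings HNDs closer by itself, and the part of clustering beyond that was not tested. When HNDs up to 10000 bp apart were counted as 1 locus, the ratio was 1.29 (1.23 to 1.35). With 100000 bp it was 1.12 (1.06 to 1.19), with 1.08 (0.969 to 1.20) on chromosome 8, and a locus then joined 2.09 HNDs in the set and 1.76 elsewhere.

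The genes with the most HNDs were long genes, and the counts below do not allow for length. Cdh13 on chromosome 8 had 18 HNDs over 1041 kb, all single-copy and in introns. Next on chromosome 8 were Csmd1, a large membrane protein of complement control, with 9, of which 2 were single-copy, and Sgcz, a sarcoglycan, with 8. Odz3, a teneurin of neuronal wiring, had 6 with a median width of 1326 bp, and Hydin, of motile cilia, and Dlgap2, of the postsynaptic density, also had 6 each. Slc10a7 and the glycosyltransferase gene Galntl6 had 5 each. Per 100 kb of gene, these genes of chromosome 8 ran from 0.441 HNDs in Galntl6 and 0.548 in Csmd1 to 1.73 in Cdh13 and 2.23 in Slc10a7.

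On chromosome 11 the teneurin gene Odz2 led with 10 HNDs over 1229 kb. Gria1, an AMPA-type glutamate receptor subunit, had 9 over 319 kb, with a median width of 1281 bp. Accn1, an acid-sensing ion channel, and Fstl4, a follistatin-like gene, also had 9 each, all single-copy. Slit3, an axon guidance ligand, had 8, the zinc transporter gene Slc39a11 and Wdpcp, of planar cell polarity, had 6 each, and the collagen gene Col23a1 had 5.

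On chromosome 1 Cpa6, a carboxypeptidase, had 9 HNDs with a median width of 216 bp. Next came Esrrg, an orphan nuclear receptor, and the kinesin gene Kif26b with 8 each. The adhesion receptor gene Bai3 and Cntnap5a, of the neurexin family, had 7 each. Pkhd1, the gene of recessive polycystic kidney disease, had 6 of which 1 was single-copy, and the potassium channel gene Kcnb2 had 6, all single-copy. Over all protein-coding genes, 470 of 3973 in the set overlapped an HND (11.8%), against 9.82% on the other autosomes. By chromosome it was 16.2% on chromosome 1, 10.9% on chromosome 8 and 9.13% on chromosome 11, so the pooled difference came mostly from chromosome 1. Their median length was 96.2 kb, compared with 14.1 kb for coding genes of the set without an HND.

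Listed gene clusters of these chromosomes held between 0 and 20 HNDs each. In the UDP-glucuronosyltransferase cluster Ugt1a, whose genes share their last exons and overlap each other, 6 HNDs fell in introns of 8 genes. The Sp100 and Sp110 genes, of nuclear bodies, held 5 HNDs, 4 of them in Sp100. Cfhr2 of the complement factor H family had 2, and Mndal of the interferon-inducible Ifi200 family and Serpinb3b had 1 each. On chromosome 8 the cadherin genes had 20 HNDs, 18 of them in Cdh13 and 1 each in Cdh8 and Cdh11. Defb4 among 35 defensin genes and Ces1g among 21 carboxylesterase genes had 1 each, and 4 of 27 zinc finger genes with Zfp symbols had 1 each. On chromosome 11 the Zfp genes had 6 HNDs, 3 of them in Zfp652, and 2 of 81 olfactory receptor genes, 1 of 49 keratin genes and 1 of 8 Schlafen genes had any. For comparison, 16.2% of all coding genes on chromosome 1, 10.9% on chromosome 8 and 9.13% on chromosome 11 overlapped an HND. The Hoxb, Nlrp1 and Ccl genes had 0. Per Mb of the genes concerned, the values reached 39.5 in the Sp100 group, 36.4 in Ugt1a, 12.4 in the Zfp genes of chromosome 11 and 11.2 in the cadherin genes. They were lowest, apart from 0, in the carboxylesterase genes at 2.79. Over all genic sequence of the set the value was 4.84, but it counts HNDs by their centre, which is not the same measure as overlap with a gene. Most of the cluster values rest on a few HNDs.

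The telomere-like hexamer TTAGGG, on either strand, was present in 23.2% (21.6 to 24.8) of the HNDs, against 19.2% (18.4 to 20.0) on the other autosomes. Per kb, which allows for the greater width, it occurred 0.555 and 0.480 times. As a share of HNDs it was highest on chromosome 11, at 28.0% (25.1 to 31.1), with 21.4% on chromosome 1 and 20.5% on chromosome 8, and the highest of the other autosomes was chromosome 17 at 23.1%. Per kb, chromosome 9, outside the set, was highest with 0.749, and chromosomes 11, 1 and 8 had 0.637, 0.546 and 0.467, the last below the reference. A G-quadruplex pattern, runs of G with short loops between them, was found on either strand in 8.23% (7.25 to 9.32) of HNDs against 6.29%. Chromosome 1 had 8.70% and chromosomes 8 and 11 had 7.91% each, and the highest of the other autosomes was chromosome 6 at 7.42%. Per kb of HND, which allows for width, HNDs with the pattern numbered 0.145 on chromosome 1, 0.128 on chromosome 8 and 0.114 on chromosome 11, against 0.108 over the others, where chromosome 12 reached 0.139 and chromosome 6 had 0.130. CpG dinucleotides numbered 10.4 per kb in the set and 11.5 per kb elsewhere.

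The most widely shared 24-base word in the set, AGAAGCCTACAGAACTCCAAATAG, was found in 52 HNDs (1.91%), of which 26 were on chromosome 1, 17 on chromosome 8 and 9 on chromosome 11. It was in 2.34% of the HNDs of other autosomes. A further word, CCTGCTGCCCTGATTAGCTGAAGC, was in 1.25% of the set and 2.07% elsewhere. A word of CA repeats, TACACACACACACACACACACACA, was in 1.29% of the set and 0.621% elsewhere. No word outside simple tandem units was thus carried by more than 1.91% of the set, and neither of the first pair was more frequent there than on the other autosomes. The families of repeats behind such words were not analysed here.

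The list has no input or KO signal, so the copy number of chromosomes 1, 8 and 11 in WT and KO cells was not tested. A difference in copy number between the lines and a dependence of these HNDs on ATRX cannot be told apart with positions alone.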

How the data were processed

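H3K9me3, H3, IgG and input were sequenced in WT and *Atrx* KO ESCs, with 2 libraries of each. The authors mapped short single-end reads to mm9 with Bowtie2 and kept uniquely mapped ones, used MACS2 for broad peak calling over the input, and retained those of WT without a counterpart in KO, with bedtools for file handling. How replicates were joined and which overlap counted as absent was not given in the sources used here. The authors deposited 1 list of 3 columns with chromosome, start and end in bp, of which 0 hold values of single libraries. Depth per library is therefore not in the values used, and there is no error between replicates.

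HNDs were assigned to windows by their centre, and a last window shorter than 50% of the window size was joined to the one before. Copies of each 50-base and 36-base word in mm9 were found by exact matching on both strands, and a word belongs to the HND in which it starts. The word counts, window assignment and overlaps were tested on simulated data. Genes were those of GENCODE M1. Positions count from 1, and 0 HNDs ended beyond a chromosome. Intervals are exact Poisson for densities, exact binomial for ratios and Wilson for shares (95%), and cover counting error only. No test was made, since density chose the chromosomes. Named genes were the 8 per chromosome with the most HNDs among coding or lincRNA genes with a proper symbol, those in the densest 1 Mb window, and listed gene clusters (some of these genes and sequences are not reported here); the alpha-defensin window and the comparison of single-copy with other HNDs by density were picked after their values were seen. The members and lists were chosen with earlier results of these data known. Python 3.11.15, numpy 2.4.6, numba 0.67.0, scipy 1.17.1 and matplotlib 3.10.9 were used.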

Additional observations from a re-analysis of the deposited data

How the results depend on the processing

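The density ratio of 1.33 ran from 0.962 to 1.76 over 20 alternatives. It fell below 1 in HNDs with under 90% single-copy words (0.962, with 0.933 on chromosome 8, 0.928 on chromosome 11 and 1.00 on chromosome 1), an alternative added after its values were seen, and in no other; the lowest of the other values by chromosome was 1.08 (0.969 to 1.20), on chromosome 8 with HNDs up to 100 kb apart joined. Among the planned choices it moved beyond its interval with single-copy HNDs alone (1.76), with covered bases per Mb (1.46), without chromosome 1 (1.43) and without chromosome 11 (1.26). Among those chosen after seeing the data it was 1.21, 1.39 and 1.41 in windows of low, middle and high G+C content, 1.47 per Mb of genic sequence, 1.12 with HNDs up to 100 kb apart joined and 1.19 without 1 Mb windows of 10 or more HNDs. Windows of 20 Mb put 95.7% above the reference median and those of 5 Mb 77.5%. The ratio without the densest windows lay between 1.34 and 1.40 when they were left out of all autosomes, with 1.36 for the densest 20% of each chromosome. Left out of the set alone, the densest 1, 2 or 3 gave 1.29, 1.26 and 1.23. The share of 20% and the removal from the set alone entered the list after their values or related ones were seen. The median width of 470 bp became 569 bp without HNDs under 200 bp, against 518 bp on the other autosomes, and the mean was 635 bp against 580 bp. The single-copy share fell from 61.1% to 50.7% with 36-base words, against 36.9% on the others, and gene overlap from 34.0% to 30.6% with protein-coding genes alone, against 26.9%. Over all results, 61 of 96 alternatives stayed inside the interval of the value reported. The cause of these shifts was not tested. No paired analysis was possible because no value per replicate is given, and leaving out a replicate gives no value for the same reason. Precision is limited by the number of HNDs, and the depth of the libraries is not in the list. The paper reports more uniquely aligned H3K9me3 reads in the KO than in the WT libraries. It also describes lower enrichment over input in KO, which it takes as a probable loss of some H3K9me3. How these differences bear on the calls was not tested.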
